A study of Mus musculus with 8 samples.

Results

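The 32 genes described here encode the glycolytic pathway and the cell's response to low oxygen. They were chosen by symbol, as the gene rows of the deposited count tables whose Ensembl identifier maps to a fixed list, and they are 32 of the 54532 genes counted. By role they comprise 2 glucose transporters (Slc2a1, Slc2a3), 16 glycolytic enzymes or their regulators (Hk1, Hk2, Gpi1, Pfkl, Pfkm, Pfkp, Pfkfb3, Aldoa, Aldoc, Tpi1, Gapdh, Pgk1, Pgam1, Eno1, Eno2, Pkm), 6 genes of lactate and pyruvate handling (Ldha, Ldhb, Slc16a1, Slc16a3, Pdk1, Pdk2), 4 regulators of the hypoxia response (Hif1a, Epas1, Egln1, Egln3) and 4 other hypoxia-linked genes (Bnip3, Ankrd37, P4ha1, Car9). Poly(A) RNA was sequenced from handpicked mouse pancreatic islets, small endocrine organs of insulin, glucagon and other hormone cells, taken from wild-type or Sting-/- mice aged 25 to 30 weeks. After a night of recovery in culture the islets spent 3 h with DMSO, the solvent, or with DMXAA at 50 µg/mL, a small molecule that activates mouse STING. STING is the adaptor that links cytosolic DNA to interferon genes. The 4 groups were wild-type DMSO, wild-type DMXAA, knockout DMSO and knockout DMXAA, with 2 libraries each. The labels do not say which part of the Sting gene was deleted, whether the loss was in all cells, or whether islets of several mice were pooled.

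Glycolysis splits glucose into pyruvate, and its flux is set mainly at hexokinase, phosphofructokinase and pyruvate kinase. Pancreatic beta cells use it to sense glucose: the transporter encoded by Slc2a2 lets glucose in according to its level in blood, and most pyruvate goes to mitochondria. Mature beta cells are known for low levels of the high-affinity hexokinase Hk1, of lactate dehydrogenase A (Ldha) and of the monocarboxylate transporter Slc16a1. In low oxygen, the alpha subunits encoded by Hif1a and Epas1 escape hydroxylation by the prolyl hydroxylases Egln1 and Egln3, which otherwise mark them for degradation. They then raise the transcription of glucose transporters, most glycolytic enzymes, Ldha, Slc16a3, Pdk1, Bnip3, P4ha1 and Car9. That control acts largely on protein stability, so mRNA levels of Hif1a and Epas1 do not report the activity of the factors.

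The promoters of these genes are shown first, because ACGTG or GCGTG is the core of the hypoxia response element, through which hypoxia-inducible factors bind DNA. Promoter windows from 250 bases before to 50 bases after the start were taken from RefSeq (build GRCm38.p6), which matched 30 of the 32 genes; Slc2a3 and Epas1 were not matched. Each stretch below is 60 bases on the gene's strand, upstream of a start, and was picked because it holds such a core. The presence of a core in these stretches is therefore not a result. A stretch need not adjoin the start: that of Pgk1 runs from 159 to 100 bases before it. Every complete ACGTG or GCGTG of either strand is in capitals (read as CACGT or CACGC where it lies on the other strand). The first 3 belong to genes called in a comparison below, and the others to the most abundant aldolase, to phosphoglycerate kinase and to lactate dehydrogenase A. The Slc2a1 stretch is chr4:119108651-119108710 (plus strand), Pfkfb3 chr2:11502111-11502170 (minus), Slc16a3 chr11:120948993-120949052 (plus), Aldoa chr7:126799349-126799408 (minus), Pgk1 chrX:106186941-106187000 (plus) and Ldha chr7:46845742-46845801 (plus).
Slc2a1: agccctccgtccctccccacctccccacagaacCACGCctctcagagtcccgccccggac
Pfkfb3: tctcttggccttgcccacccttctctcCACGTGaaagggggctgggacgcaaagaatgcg
Slc16a3: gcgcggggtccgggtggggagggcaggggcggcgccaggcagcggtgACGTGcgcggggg
Aldoa: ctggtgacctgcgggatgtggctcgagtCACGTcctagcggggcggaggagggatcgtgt
Pgk1: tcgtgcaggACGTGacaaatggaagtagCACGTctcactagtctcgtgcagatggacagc
Ldha: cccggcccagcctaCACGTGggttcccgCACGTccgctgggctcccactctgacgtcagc

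A window of 27 of the 30 matched genes (90%) held ACGTG or GCGTG on either strand, against 46.73% of the 27025 genes in the table. The 3 without it were Gpi1, Eno2 and Tpi1. ACGTG alone was in 22 of 30 (73.33%), against 21.78% of genes, and the palindrome CACGTG, which contains ACGTG on both strands, in 7 of 30 against 8.093%. The 7 were Pfkm, Pfkfb3, Ldha, Slc16a1, Pdk2, Hif1a and Bnip3. Genes with several starts have several windows and so more chances of a match: by window, ACGTG or GCGTG was in 35 of 44 (79.55%) against 43.77% of all 32851. Both cores contain CG, and the genes in the table were not matched to the members for CG content or expression. A match describes these letters only and is not evidence of a bound site.

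Library totals ran from 15624020 to 19601850 counts, and the 32 genes took 0.4554% to 0.5895% of them. The targeted gene, Sting1, was low throughout, with counts of 39 and 41 (DMSO) and 23 and 39 (DMXAA) in wild-type islets, then 48 and 19 with DMSO and 35 and 27 with DMXAA where the label says knockout. It was therefore not lower there, its count covers the whole gene with the deleted part unknown, and those libraries are called knockout-labelled throughout. As a check of the treatment, 10 of 10 interferon-response genes were higher with DMXAA in wild-type islets (median log2 fold change 5.22) and 0 of 10 passed edgeR's test in knockout-labelled islets (3 at an unadjusted p under 0.05). Islet identity was clear in every library: insulin 2 mRNA (Ins2) stood between 104200 and 213600 CPM (CPM, the count relative to the scaled library total) and glucagon (Gcg) between 15230 and 24610 CPM. Summed acinar markers ran from 390.3 CPM (knockout-labelled DMXAA) to 7359 CPM (wild-type DMSO replicate 1), and summed endothelial markers from 770.3 to 1501 CPM. In such bulk samples, fewer cells of a type and less RNA per cell cannot be told apart.

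All 32 genes passed the filter on low counts and were tested. Genes were compared per kb of exon, with all annotated exons of a gene joined. That length can exceed the longest protein-coding transcript, at 5379 against 2027 bases for Eno1 and 8532 against 4278 for Hk1. The order and overlap of genes close in level therefore depend on the length used. On this scale the most abundant was aldolase A (Aldoa), with a mean of 410 CPM per kb over the 8 libraries and a range of 274 to 512. Its lowest library lay above the highest of every other member, the next being pyruvate kinase (Pkm) at 182 CPM per kb (125 to 224). Pgk1, Pgam1, Eno1 and Tpi1 followed at means of 152, 123, 116 and 103 CPM per kb, and their ranges overlapped. At the entry of the pathway, the beta-cell transporter gene Slc2a2 stood at 65.6 CPM per kb (52.3 to 88.5), above Slc2a1 at 39.2 (27.5 to 47.2), and these ranges did not overlap. The hexokinase genes Hk1, at 4.03 CPM per kb (2.65 to 5.88), and Hk2, at 2.82 (1.88 to 3.46), overlapped each other. Ldha was not low, at 38.7 CPM per kb (25.8 to 48.9), and Ldhb stood at 5.77. Of the monocarboxylate carriers, Slc16a3 stood at 6.70 and Slc16a1 at 1.51 CPM per kb. The lowest member was carbonic anhydrase Car9, at 0.415 CPM per kb. These are levels of whole islets with their vessels and other cells, not of beta cells alone.

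**Figure D1:**
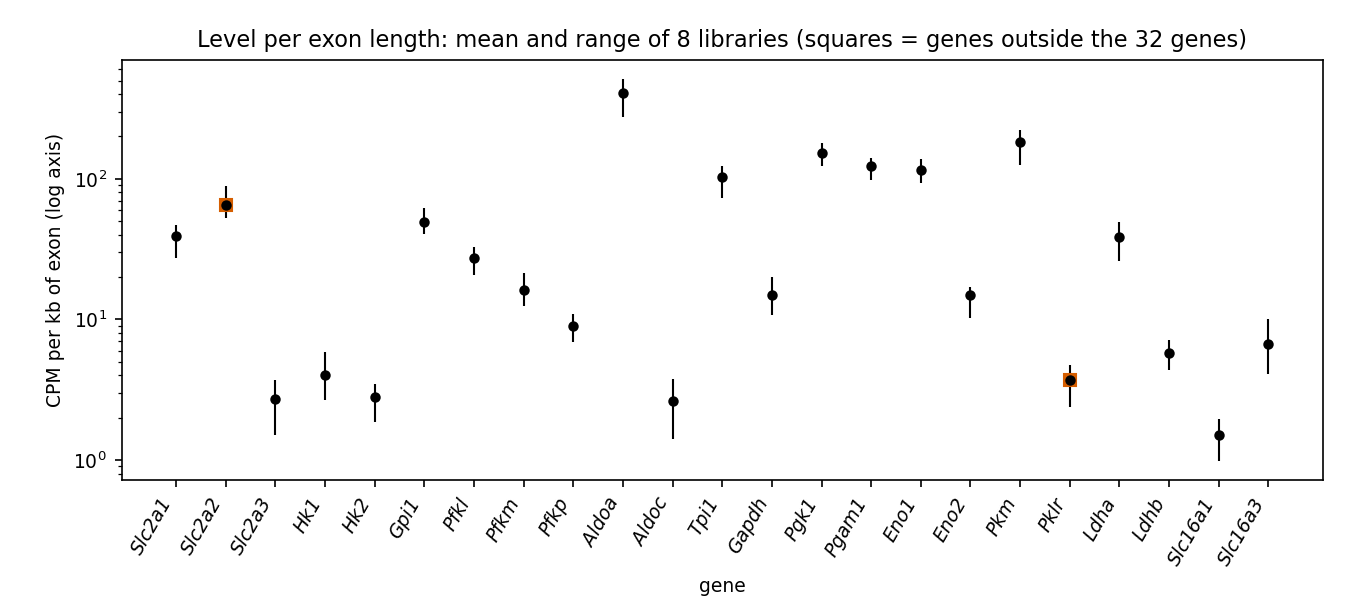
CPM per kb of exon (log axis) for glucose transporters, glycolytic enzymes and lactate-handling genes; points are means and lines the range of 8 libraries, and squares mark Slc2a2 and Pklr, which are not among the 32 genes. Aldoa is highest at 410, and Slc2a2 at 65.6 lies above Slc2a1 at 39.2.

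Several of these genes have near-identical copies elsewhere, and their counts are uncertain where a read matches several copies. Of all 100-base stretches of the Gapdh transcript, 78.05% also occurred in transcripts of 84 other annotated genes. The shares were 67.03% for Pgk1, 59.02% for Eno1 and 39.74% for Pgam1, and at most 9.816% (Pkm) for every other member. For 21 members, Epas1, Pfkfb3, Slc2a1 and Slc16a3 among them, no such stretch was shared. Gapdh stood at only 14.8 CPM per kb, below its neighbours in the pathway.

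With DMXAA in wild-type islets, Pfkfb3 rose and Epas1 fell, and no other member passed the test. Pfkfb3 makes fructose 2,6-bisphosphate, the activator of phosphofructokinase, and Epas1 encodes an alpha subunit of the hypoxia-inducible factors that is prominent in endothelium. Calls, meaning an adjusted p under 0.05 by edgeR's quasi-likelihood test over 17055 genes, thus covered 2 of 32 members, against 1.48% of all genes (1.11% higher and 0.375% lower). Called or not, 14 of the 16 glycolytic enzymes, Pfkfb3 included, had a positive fold change, with a median log2 fold change of 0.37. All 4 hypoxia regulators, Epas1 included, had a negative one, with a median of -0.71. The median over all genes tested was 0.00.

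Pfkfb3 (chromosome 2, 11471433 to 11554077, minus strand, mm10) stood at 79.2 and 74.4 CPM with DMSO and 144 and 162 with DMXAA in wild-type islets, then 82.8 and 69.5 with DMSO and 106 and 80.5 with DMXAA in knockout-labelled islets. The wild-type DMXAA libraries were the highest of the 8 and overlapped no other group. The wild-type change was 1.0 on the log2 scale (SE 0.17), or 2.0-fold, with an adjusted p of 0.00505 by edgeR. Without wild-type DMXAA replicate 2 the rise was 0.91 and no longer called (edgeR adjusted p = 0.0832), nor was it with total-count scaling (0.96, adjusted p = 0.051).

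The rest of upper glycolysis did not pass. Aldoc, a minor aldolase here, had 4.63 and 6.79 CPM with DMSO and 12.4 and 9.94 with DMXAA in wild-type islets, then 9.0 and 7.93 with DMSO and 7.7 and 10.8 with DMXAA in knockout-labelled islets. Its wild-type groups did not overlap, and the log2 fold change of 0.96 (SE 0.26) had an adjusted p of 0.133 by edgeR. Triose-phosphate isomerase (Tpi1) had 199 and 215 CPM, 322 and 292 CPM, 328 and 321 CPM, and 257 and 342 CPM in the same order of groups. Wild-type DMSO was low and the other 3 groups overlapped; the wild-type log2 fold change was 0.57 (SE 0.16, edgeR adjusted p = 0.173). The platelet-type phosphofructokinase Pfkp had 93.0 and 93.8 CPM with DMSO and 112 and 136 with DMXAA in wild-type islets, then 146 and 142 with DMSO and 125 and 114 with DMXAA in knockout-labelled islets. Glucose-phosphate isomerase (Gpi1) had 261 and 265, 332 and 318, 377 and 398, and 299 and 308 CPM in that order. For both genes the wild-type DMSO libraries were the lowest and the knockout-labelled DMSO libraries the highest. The hexokinases overlapped: Hk1 (22.6 and 37.7, then 25.8 and 31.3 CPM) and Hk2 (19.5 and 20.7, then 13.9 and 20.2 CPM) did not separate wild-type DMSO from wild-type DMXAA.

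In lower glycolysis, fold changes of all 6 enzymes were positive, between 0.23 (Pgam1) and 0.51 (Pkm) on the log2 scale, and none passed the test. Gapdh, the glyceraldehyde-phosphate dehydrogenase often used as a reference gene, had 44.4 and 55.8 CPM with DMSO and 63.9 and 62.3 with DMXAA in wild-type islets, then 82.4 and 73.8 with DMSO and 57.4 and 49.3 with DMXAA in knockout-labelled islets. Its levels were highest in knockout-labelled DMSO, and the other 3 groups were closer together. Over both parts of the pathway, 12 of 16 enzymes had both wild-type DMXAA libraries above both wild-type DMSO libraries, against 22.5% of all genes. The summed CPM of the 16 enzymes was 3426 and 3794 with DMSO and 5091 and 4662 with DMXAA in wild-type islets, then 5057 and 4940 with DMSO and 4318 and 5243 with DMXAA in knockout-labelled islets. The wild-type DMSO libraries were thus the lowest of the 8.

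Hypoxia regulators lay on the other side. Epas1 (chromosome 17, 86753700 to 86833410, plus strand) had 57.8 and 60.9 CPM with DMSO and 32.1 and 36.8 with DMXAA in wild-type islets, then 48.4 and 49.4 with DMSO and 71.6 and 73.4 with DMXAA in knockout-labelled islets. No 2 of the 4 groups overlapped: wild-type DMXAA was lowest and knockout-labelled DMXAA highest. It fell by 0.78 on the log2 scale in wild-type islets (SE 0.14, edgeR adjusted p = 0.0105). That call was lost without wild-type DMXAA replicate 1 (a fall by 0.69, edgeR adjusted p = 0.264) or replicate 2 (a fall by 0.88, adjusted p = 0.0787), and with only the 2 groups compared in the fit (adjusted p = 0.0619).

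Egln3, a prolyl hydroxylase that is itself induced by hypoxia, had 13.9 and 11.4 CPM with DMSO and 5.76 and 7.29 with DMXAA in wild-type islets, then 8.94 and 9.06 with DMSO and 13.4 and 9.54 with DMXAA in knockout-labelled islets. Hif1a had 145 and 103, 75.2 and 83.5, 92.8 and 102, and 132 and 101 CPM in that order. For both genes the wild-type DMXAA libraries were the lowest of the 8. The log2 fold changes in wild-type islets were -0.95 for Egln3 (SE 0.24) and -0.64 for Hif1a (SE 0.18), and edgeR's adjusted p was 0.0844 and 0.17. All 4 regulators, Egln1 included, had both wild-type DMXAA libraries below both wild-type DMSO libraries, against 23.9% of all genes. Of the 4 other hypoxia-linked genes none passed, and their fold changes were mixed in sign.

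Endothelial markers were also lower in the wild-type DMXAA libraries. Of 16 endothelial markers, 3 fell, 0 rose and 15 had a negative fold change. Their summed level was 961.7 and 1220 CPM with DMSO and 770.3 and 790.7 with DMXAA in wild-type islets, then 904.7 and 823.8 with DMSO and 1501 and 1374 with DMXAA in knockout-labelled islets. None of the 16 was at 0 in all libraries, and Cldn5 was the lowest at 0.3397 to 0.9363 CPM. The ratio of Epas1 to that sum, per 1000 CPM of markers, was 60.1 and 49.9, 41.7 and 46.6, 53.4 and 60.0, and 47.7 and 53.4 in the same order of groups. On this ratio the knockout-labelled DMXAA libraries were no longer the highest, and wild-type DMXAA remained the lowest pair. The part of endothelial RNA in the Epas1 result was not tested.

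**Figure D2:**
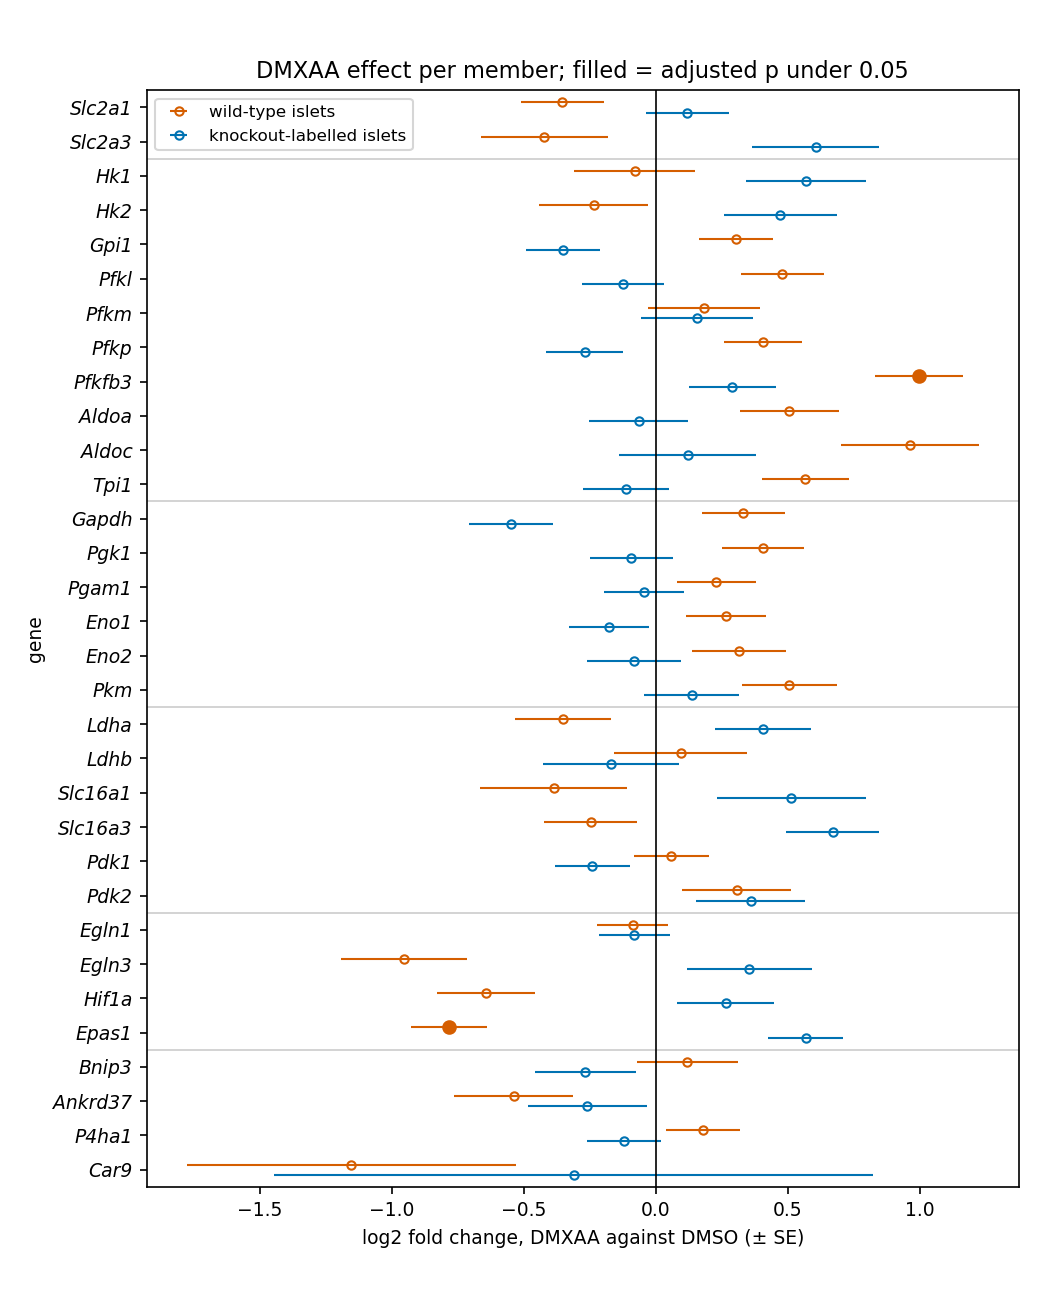
Log2 fold change of DMXAA against DMSO (x axis, ± SE) for each of the 32 genes in wild-type and knockout-labelled islets; filled points have an adjusted p under 0.05. Only Pfkfb3 (1.0) and Epas1 (-0.78), both in wild-type islets, are filled.

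In knockout-labelled islets no member passed the test for DMXAA against DMSO, against 0.375% of all genes (0.164% higher and 0.211% lower). At an unadjusted p under 0.05 there were 8 members, against 7.3% of all genes. DESeq2 also called 0 members, against 154 of all 17055 genes. limma-voom called 0 of all 17055 genes here, so its count of 0 members adds nothing. The enzymes had a median log2 fold change of -0.07 with 6 of 16 positive, and the 4 hypoxia regulators a median of 0.31. Both medians depended on single libraries. Without knockout-labelled DMXAA replicate 1 the enzyme median was 0.06 and that of the regulators 0.07, and without replicate 2 they were -0.18 and 0.52.

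The members with the smallest unadjusted p were Epas1 (log2 fold change 0.57, SE 0.14), Slc16a3 (0.67, SE 0.18) and Gapdh (-0.55, SE 0.16), and their adjusted p by edgeR was 0.135, 0.172 and 0.244. Slc2a3, a high-affinity glucose transporter gene, and Hk1 also had both knockout-labelled DMXAA libraries above both knockout-labelled DMSO libraries. In knockout-labelled islets Hk1 stood at 36.5 and 27.1 CPM with DMSO and at 50.2 and 44.0 CPM with DMXAA, and Hk2 had 14.1 and 11.2, then 16.9 and 18.0 CPM. Ldha, which turns pyruvate into lactate, had 148 and 118 CPM with DMSO and 85.5 and 123 with DMXAA in wild-type islets, then 124 and 114 with DMSO and 152 and 162 with DMXAA in knockout-labelled islets. Its knockout-labelled DMXAA libraries were the highest of the 8 and its groups otherwise overlapped; the log2 fold change of 0.40 (SE 0.18) had an adjusted p of 0.658 by edgeR. Ldhb, the isozyme of the reverse reaction, had 9.15 and 9.40, 10.3 and 9.47, 6.87 and 11.2, and 9.15 and 6.91 CPM in that order, with no separation by treatment in knockout-labelled islets. In these libraries 10 of 32 members lay wholly above their DMSO group (18.1% of all genes) and 8 wholly below (17.7%). Of the cell type markers, 20 of 20 acinar genes lay wholly below their DMSO group, and 15 of 16 endothelial and 12 of 16 fibroblast genes wholly above. The test called 0 of the acinar, 2 of the endothelial and 0 of the fibroblast genes, with 15, 14 and 4 at an unadjusted p under 0.05 by edgeR. Their part in the members' values was not tested. Of 7 lymphocyte markers tested, 3 fell, from summed levels of 36.34 and 36.35 CPM to 5.132 and 10.12 CPM.

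**Figure D3:**
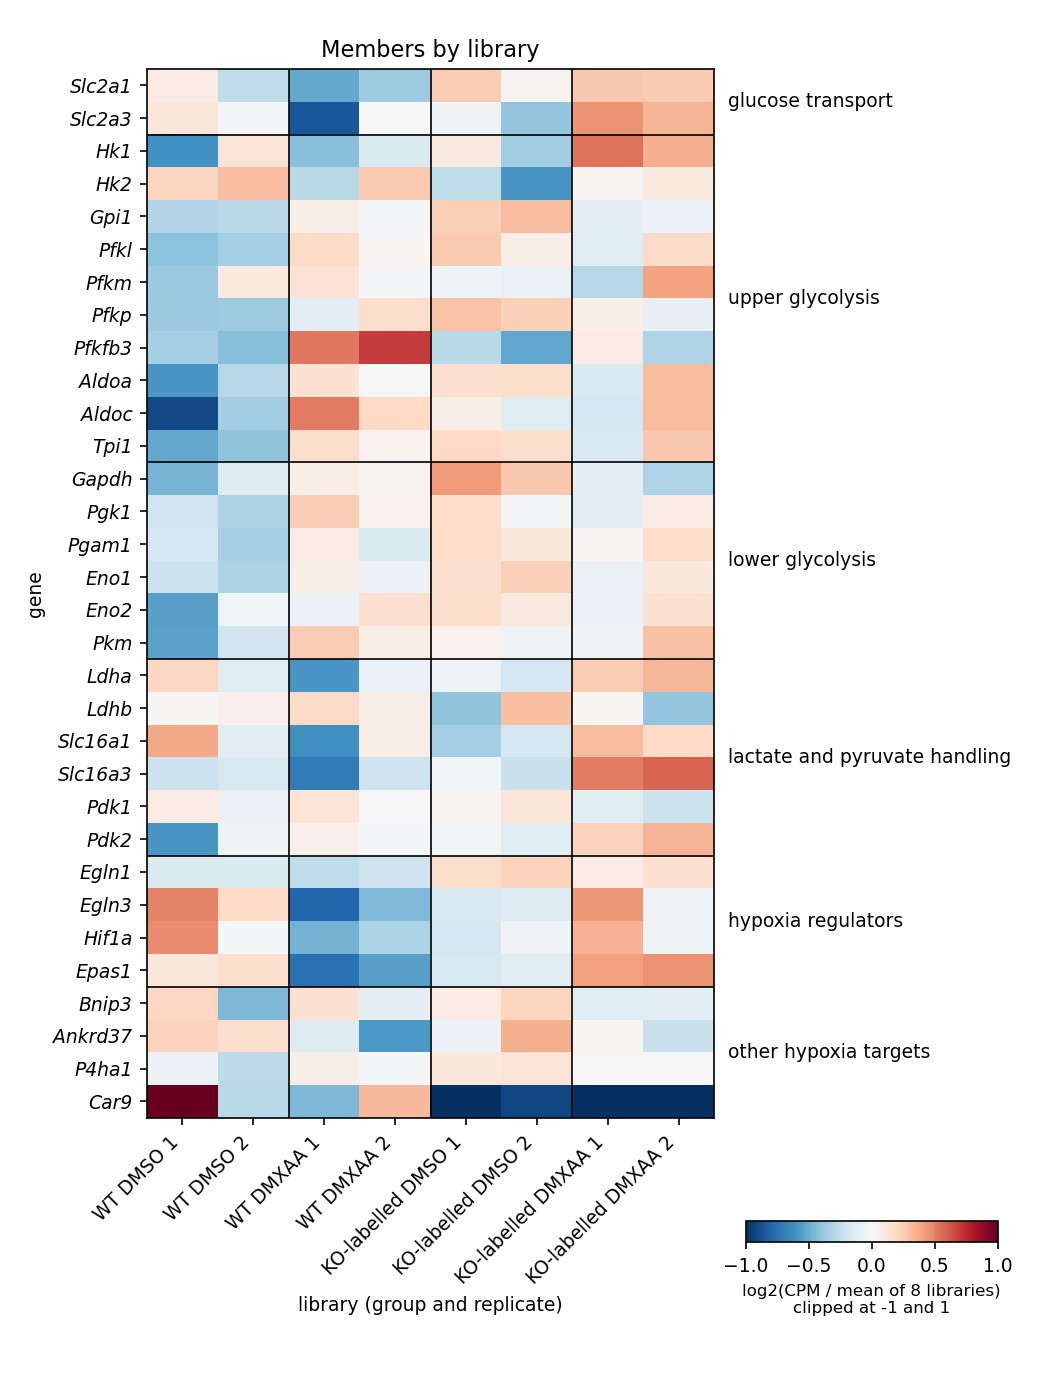
Each cell is the log2 ratio of a gene's CPM in a library to its mean over the 8 libraries (colour, clipped at -1 and 1, which only Car9 passes); genes are ordered by role and libraries by group. In the glycolytic rows the 2 wild-type DMSO columns are mostly blue, and in the 4 hypoxia regulator rows the wild-type DMXAA columns are blue.

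A difference in the DMXAA effect between the genotypes was called for Epas1 alone, or 1 of 32 members against 1.2% of all genes (0.668% higher and 0.528% lower). At an unadjusted p under 0.05 there were 17 members, against 8.71% of all genes. The difference, knockout-labelled minus wild-type, was 1.35 on the log2 scale (SE 0.20, edgeR adjusted p = 0.00349). Without knockout-labelled DMSO replicate 1 it was 1.32 and missed the threshold (adjusted p = 0.0502). For the other 31 members the difference was not called. Those with the smallest p were Gapdh (-0.88, SE 0.22), Egln3 (1.31, SE 0.34), Slc16a3 (0.92, SE 0.25) and Hif1a (0.91, SE 0.26), with adjusted p between 0.102 and 0.180 by edgeR. For Pfkfb3 the difference was -0.71 (SE 0.23, edgeR adjusted p = 0.295), so its rise in wild-type islets was not shown to differ from the 0.29 (SE 0.17) of knockout-labelled islets. The enzymes had a median difference of -0.53 with 14 of 16 negative, against a median of 0.00 over all genes. The wild-type DMSO libraries, which had the lowest enzyme sums, enter this difference too. Between the genotypes the enzyme median was 0.43 under DMSO and -0.03 under DMXAA. Of 16 endothelial markers, 7 had a higher DMXAA effect in knockout-labelled than in wild-type islets and 0 a lower one.

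Under DMSO no member was called between the genotypes by edgeR, against 0.223% of all genes (0.182% higher and 0.041% lower). At an unadjusted p under 0.05 there were 13 members, against 12.3% of all genes; DESeq2 called 3 (Gpi1, Pfkp and Tpi1) and limma-voom 0. In 12 of 16 enzymes both knockout-labelled libraries lay above both wild-type libraries, against 24.3% of all genes, and the enzyme median was 0.43 on the log2 scale. Scaling by total counts alone shifted the median of all genes to -0.14 here, and the enzyme median was then 0.29. Among the enzymes, the largest positive differences were those of Tpi1 (0.64, SE 0.16), Gapdh (0.64, SE 0.16) and Pfkp (0.62, SE 0.15), with edgeR adjusted p of 0.159, 0.151 and 0.139.

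The 2 wild-type DMSO libraries also enter the interaction. This comparison and the wild-type treatment comparison share them. In both, Tpi1 (0.64 and 0.57), Aldoa (0.59 and 0.51), Pfkl (0.54 and 0.48), Pfkp (0.62 and 0.41) and Aldoc (0.56 and 0.96) had positive log2 values. Counted over libraries, 10 of 16 enzymes had both wild-type DMSO libraries below all 6 others, against 6.29% of all genes. They were Gpi1, Pfkl, Pfkp, Aldoa, Aldoc, Tpi1, Pgk1, Pgam1, Eno1 and Pkm. None of the 32 members had both wild-type DMSO libraries above all 6 others, against 4.95% of all genes. Endocrine markers showed some of the same order: 5 of 12 had both wild-type DMSO libraries below all 6 others and 0 above. Their sum was 239800 and 187000 CPM with DMSO and 261800 and 217700 with DMXAA in wild-type islets, then 284800 and 292500 with DMSO and 209800 and 367000 with DMXAA in knockout-labelled islets, so on the sum the groups overlapped. Summed acinar markers were 7359 and 1491 CPM in wild-type DMSO, far apart within that group. The part of these cell types in the enzyme levels was not tested.

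Under DMXAA 4 of 32 members differed between the genotypes, against 2.39% of all genes (1.02% higher and 1.37% lower). Epas1, the glucose transporter gene Slc2a1 and the lactate exporter gene Slc16a3 were higher in knockout-labelled islets, and Pfkfb3 was lower. The 16 enzymes had a median log2 difference of -0.03, with 10 of 16 negative and 1 called (Pfkfb3). Its sign depended on the setting: it was 0.10 without knockout-labelled DMXAA replicate 1 (10 of 16 positive), -0.18 without replicate 2 (13 negative) and -0.12 with total-count scaling (14 negative). All 4 hypoxia regulators lay wholly above the wild-type libraries, against 23.3% of all genes, with a median of 0.69.

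Epas1 was 1.07 higher on the log2 scale (SE 0.14, edgeR adjusted p = 0.000696), or 2.10-fold, and stayed called in all 17 alternative fits. Slc16a3 (chromosome 11, 120948480 to 120960868, plus strand), which exports lactate from glycolytic cells, had 30.7 and 31.9 CPM with DMSO and 21.9 and 30.8 with DMXAA in wild-type islets, then 34.9 and 30.6 with DMSO and 50.8 and 53.5 with DMXAA in knockout-labelled islets. Its knockout-labelled DMXAA libraries were the highest of the 8, and the other groups overlapped. The difference of 0.98 (SE 0.18, edgeR adjusted p = 0.00687) did not hold when wild-type DMXAA replicate 1 was left out (0.76, edgeR adjusted p = 0.183), with total-count scaling (0.89, adjusted p = 0.0591) or with only the 2 groups compared (0.96, adjusted p = 0.0501). Its relative Slc16a1, the carrier normally kept low in beta cells, had 8.68 and 6.20, 4.36 and 6.97, 5.27 and 5.89, and 8.28 and 7.67 CPM in that order and was not called (0.49, SE 0.28, edgeR adjusted p = 0.493).

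Slc2a1 (chromosome 4, 119108711 to 119137983, plus strand), which encodes the transporter GLUT1, had 145 and 115 CPM with DMSO and 96.4 and 107 with DMXAA in wild-type islets, then 164 and 140 with DMSO and 166 and 165 with DMXAA in knockout-labelled islets. The wild-type DMXAA libraries were the lowest of the 8 and the knockout-labelled DMXAA libraries the highest, level with a knockout-labelled DMSO library. The difference under DMXAA was 0.70 (SE 0.16, edgeR adjusted p = 0.0345). The call held in 9 of 17 alternative fits and was lost when any of the 6 libraries other than wild-type DMSO was left out, with adjusted p from 0.0537 to 0.406. Pfkfb3 was 0.72 lower on the log2 scale (-0.72, SE 0.17, edgeR adjusted p = 0.0355). That call held in 10 of 17 alternative fits. It was lost without wild-type DMXAA replicate 1 or 2, knockout-labelled DMSO replicate 1 or 2, or knockout-labelled DMXAA replicate 2, with adjusted p from 0.0741 to 0.273.

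**Figure D4:**
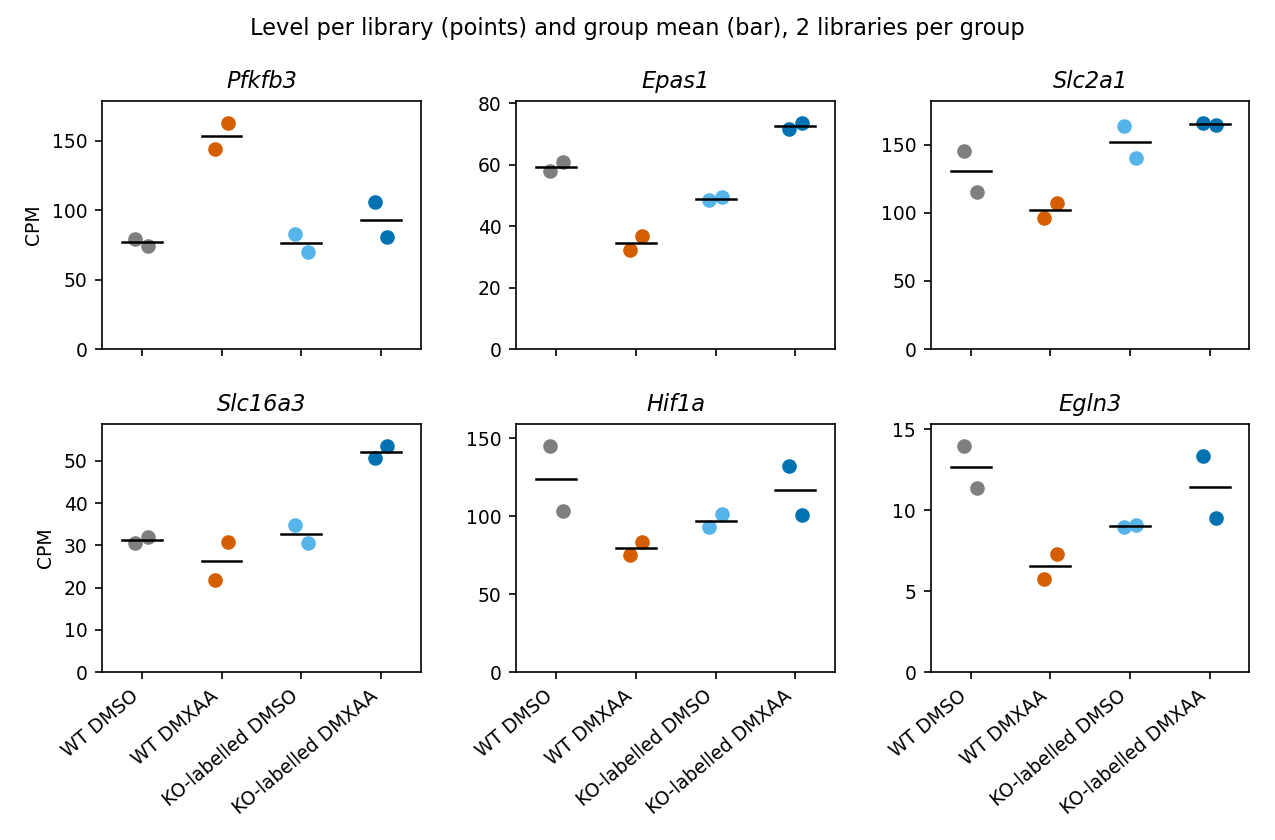
CPM (y axis, from 0) of 6 genes in the 4 groups; points are the 2 libraries and the bar their mean. Pfkfb3 is highest in wild-type DMXAA (144 and 162 CPM), where Epas1 (32.1 and 36.8 CPM) is lowest; Slc16a3 is highest in knockout-labelled DMXAA (50.8 and 53.5 CPM).

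Between the DMXAA groups, 9 of 16 endothelial markers were higher in knockout-labelled islets and 0 lower, and the sums given above did not overlap. Per 1000 CPM of endothelial markers, Slc16a3 was 31.9 and 26.2 with DMSO and 28.5 and 39.0 with DMXAA in wild-type islets, then 38.6 and 37.2 with DMSO and 33.8 and 38.9 with DMXAA in knockout-labelled islets. For Slc2a1 this ratio was 151 and 94.6, 125 and 136, 181 and 170, and 110 and 120 in that order. On these ratios Slc16a3 overlapped between the DMXAA groups, and Slc2a1 was lower in the knockout-labelled DMXAA libraries than in the wild-type ones. Pfkfb3 was 82.3 and 61.0, 187 and 205, 91.6 and 84.4, and 70.3 and 58.6 per 1000 CPM of markers, so wild-type DMXAA stayed apart. Also higher in knockout-labelled islets were 2 of 16 fibroblast and 2 of 20 macrophage markers, and all 20 acinar markers lay wholly lower. Summed macrophage markers were 181.1 and 186.5 CPM in wild-type DMXAA and 228.3 and 356.5 CPM in knockout-labelled DMXAA libraries. The part of these cell types in the 4 differences was not tested.

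**Figure D5:**
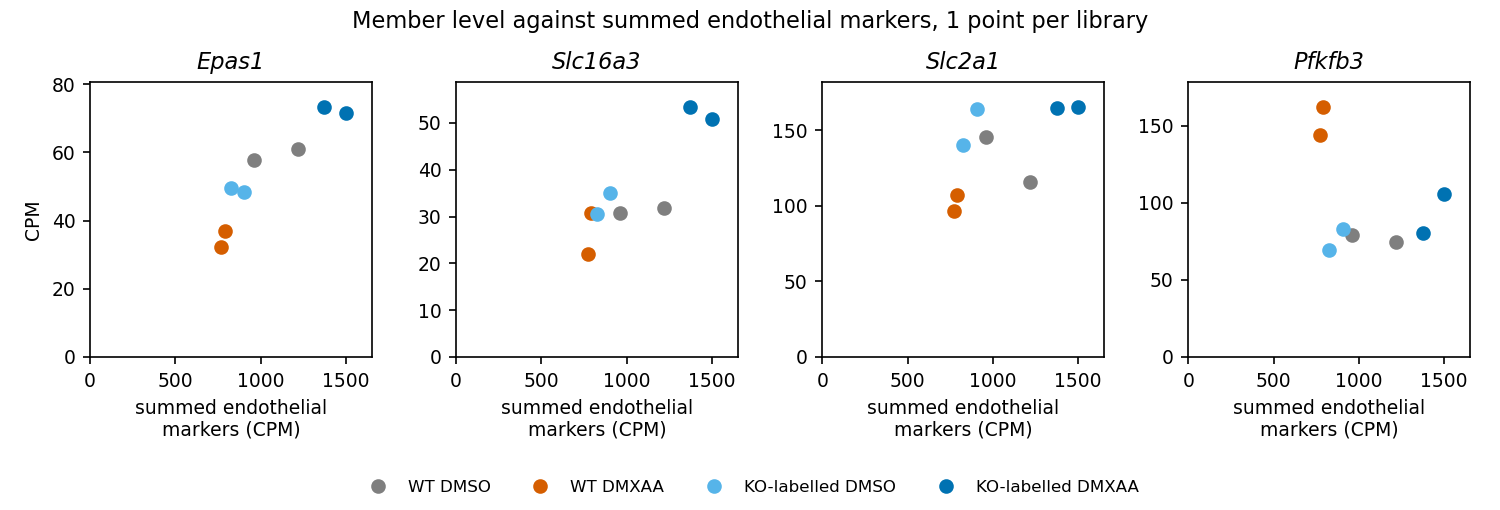
CPM of a gene (y axis) against the summed CPM of 16 endothelial markers (x axis), both from 0, with 1 point per library coloured by group. Epas1 is lowest where the markers are lowest (770.3 and 790.7 CPM, wild-type DMXAA) and highest where they are highest (1501 and 1374 CPM), whereas Pfkfb3 is highest in the wild-type DMXAA libraries.

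Car9, a membrane carbonic anhydrase that is a textbook hypoxia target, was the least abundant member, with 4 to 67 counts per library. It had 3.52 and 0.787 CPM with DMSO and 0.700 and 1.2 with DMXAA in wild-type islets, then 0.267 and 0.510 with DMSO and 0.194 and 0.468 with DMXAA in knockout-labelled islets. Wild-type DMSO replicate 1, the library with the highest acinar sum, was the highest, and each of the 4 wild-type libraries lay above the 4 knockout-labelled ones. Neither genotype difference passed the test (edgeR adjusted p = 0.260 under DMSO and 0.514 under DMXAA). Mitophagy receptor Bnip3 (86.8 to 138 CPM), collagen prolyl hydroxylase P4ha1 (154 to 202 CPM), Ankrd37 (7.81 to 14.9 CPM) and the pyruvate dehydrogenase kinases Pdk1 (53.1 to 67.7 CPM) and Pdk2 (9.63 to 18.3 CPM) were called in none of the 5 comparisons.

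Genes of the same pathways outside the 32 were counted from lists. In wild-type islets 1 of 10 beta-cell glucose-sensing genes passed: Arrdc4, a target of the glucose-responsive factor ChREBP. It rose from 30.1 and 27.2 CPM with DMSO to 57.3 and 51.3 CPM with DMXAA, and stood at 22.3 and 21.4 CPM, then 25.3 and 22.5 CPM, in knockout-labelled islets. The wild-type DMXAA libraries were the highest and overlapped no other group. The rise was 0.92 on the log2 scale (SE 0.15, edgeR adjusted p = 0.00525), and under DMXAA Arrdc4 was lower in knockout-labelled than in wild-type islets (-1.18, SE 0.16, adjusted p = 0.000616). Under DMSO it was also lower there, with no overlap of the groups. For the genotypes under DMSO and for the interaction, 0 of the 10 genes were called, so its rise was not shown to differ between the genotypes. None of Slc2a2 (301.1 to 509.1 CPM), the islet glucose-6-phosphatase G6pc2 (1874 to 2256 CPM) and the pyruvate kinase Pklr (7.68 to 15.2 CPM) passed in any of the 5 comparisons.

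Among 28 further hypoxia targets tested, 0 passed in wild-type or knockout-labelled islets for DMXAA against DMSO, with 6 and 3 at an unadjusted p under 0.05 by edgeR, against 11.9% and 7.3% of all genes. Between the genotypes under DMSO 11 were (12.3% of all genes), for the interaction 7 (8.71%), and between the genotypes under DMXAA 6 (13%). Vegfa, the main angiogenic target, stood between 545.8 and 657.2 CPM in all 8 libraries and was not called. Under DMXAA 2 of the 28 were higher in knockout-labelled islets: Bhlhe40, a transcriptional repressor (0.95, SE 0.15, edgeR adjusted p = 0.00307), and Ddit4, an inhibitor of mTOR signalling (0.84, SE 0.18, edgeR adjusted p = 0.0197). Bhlhe40 had 145 and 171 CPM in wild-type DMXAA against 306.5 and 301 in knockout-labelled DMXAA libraries, and Ddit4 had 108 and 117 against 173.5 and 229.7 CPM. For both genes the DMXAA groups did not overlap. Nor did the DMSO groups, at 251.2 and 218.7 against 283.7 and 309.8 CPM for Bhlhe40 and 107.7 and 137.7 against 206.9 and 183.8 CPM for Ddit4. The DMSO differences of 0.34 (SE 0.15) and 0.67 (SE 0.18) were not called (edgeR adjusted p = 0.394 and 0.167), and neither was the interaction (0.61, SE 0.21, and 0.17, SE 0.25). Of the other lists, 0 of 15 further glycolytic enzymes, 0 of 15 genes of pyruvate entry into mitochondria, 0 of 8 of the pentose phosphate branch and 0 of 9 other regulators of hypoxia-inducible factors passed edgeR's test in any of the 5 comparisons. At an unadjusted p under 0.05 in wild-type islets with DMXAA these lists had 1, 1, 1 and 2 genes, and over the 5 comparisons at most 2, 2, 1 and 4.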

How the data were processed

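Paired-end reads of poly(A) RNA from 8 islet libraries were counted by the authors; the deposited values are raw counts per Ensembl gene, 1 file per library. HISAT2, HTSeq and the build mm10 are named, per the submitters' processing notes; for their versions, the annotation and the strand setting the entry is: not given in the sources used here. Symbols, coordinates and exon lengths came from GENCODE M21 on the same build. Aldoa has a second, low identifier, which was kept apart.

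Counts were tested with edgeR 4.0.16 in R 4.3.3: filterByExpr by group (17055 genes), TMM scaling, a negative binomial model with a coefficient for each group over all 8 libraries (4 residual degrees of freedom, biological coefficient of variation 17.1%), and the robust two-sided quasi-likelihood F-test, with Benjamini-Hochberg adjustment over all genes tested. SE is the absolute log2 fold change over the root of F. CPM used TMM-scaled totals. The labels do not say whether libraries came from separate mice, so p-values reflect only how far these libraries spread, and that spread may be technical; libraries of a group differed by more than sampling noise (chi-square per degree of freedom 6.93 to 55.5). Alternatives used DESeq2 1.42.0, limma 3.58.1, other scalings and filters, a replicate block, and each library left out. The fit was tested on simulated data.

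The 32 genes, the lists and the naming rule were chosen with earlier results of these data known. Values per library are given for called members, the 10 with the smallest unadjusted p, and Gapdh, Hif1a, Ldha, Ldhb, Slc16a1, Slc2a1, Hk1, Hk2 and Car9; other list genes are named where called (up to 3 per comparison), plus Slc2a2, G6pc2, Pklr and Vegfa; a further gene of the rule is not reported here. Genes named beyond this rule were chosen after their values were seen.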

Additional observations from a re-analysis of the deposited data

Results flagged for a closer look

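Epas1 differed between the genotypes in its response to DMXAA, by the interaction term of the edgeR model: the effect in knockout-labelled islets minus that in wild-type islets was 1.35 on the log2 scale (adjusted p = 0.00349). Both knockout-labelled DMXAA libraries lay above their DMSO libraries, and both wild-type DMXAA libraries below theirs. Summed endothelial markers moved in the same directions, and their part in this result was not tested.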

How the results depend on the processing

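The number of the 32 genes called was recomputed under each alternative. For DMXAA against DMSO in wild-type islets (2 called), it was 4 with DESeq2, 1 with total-count scaling, 5 with no filter on low counts and 1 with only the 2 groups compared. Leaving out a library gave 0 (without wild-type DMXAA replicate 2) to 6 (without wild-type DMSO replicate 2). For the interaction (1 called), it was 3 with DESeq2 and 2 with no filter, and 0 to 3 with a library left out. For the genotypes under DMSO (0 called), it was 3 with DESeq2 and 1 with no filter, and 0 to 2 with a library left out. For the genotypes under DMXAA (4 called), it was 1 with total-count scaling and 1 with only the 2 groups compared, and 1 to 5 with a library left out. In knockout-labelled islets it was 0 in every fit. The cause of these changes was not tested, and where a library is left out the lone sample is assumed to vary like the other groups. For DMXAA in wild-type islets, more of all genes were also called without wild-type DMSO replicate 2 than in the main fit. Fewer were called without wild-type DMXAA replicate 2, so these shifts were not confined to the 32 genes. For the 62 gene and comparison pairs with an unadjusted p under 0.05, 985 of 1036 recomputed values kept their direction and call, 24 lost and 27 gained the call, and 0 changed direction. Over all 160 pairs of the 32 genes and 5 comparisons, 42 had both signs among their alternatives, 0 of them called. With the replicate number as a block the counts were 2, 0, 1, 0 and 4, as without it. Deviations of same-numbered libraries showed little correlation (-0.09995 to 0.07459). With 2 libraries per group this cannot exclude a shared mouse or day, so whether the numbers pair the samples stays unknown. The interaction needs all 4 groups, so a fit of only the 2 groups compared was not run for it. DESeq2 also called more genes over all 17055 than the main fit: 330 against 253 in wild-type islets and 154 against 64 in knockout-labelled islets. For the interaction it called 312 against 204, between genotypes under DMSO 155 against 38 and under DMXAA 616 against 407. With no filter 321 of 31466 genes were called in wild-type islets. Over all genes, total-count scaling turned the split of higher and lower calls from 28 and 36 to 0 and 22 in knockout-labelled islets, from 31 and 7 to 14 and 0 between genotypes under DMSO, and from 174 and 233 to 79 and 180 under DMXAA. Depth limits Car9 most, at 4 to 67 counts per library.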

Other observations

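The lower-count Aldoa identifier, which shares that symbol in the annotation, held 5 to 28 counts per library and was in no comparison of members.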
